A study of Caenorhabditis elegans with 2 samples.

Results

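The germline, meiosis and egg-to-embryo genes are 56 protein-coding genes of Caenorhabditis elegans, given as a list and present in the Ensembl annotation of the WBcel235 assembly. They are 56 of 19973 annotated protein-coding genes and of 10896 that carry a symbol other than a sequence name, called named genes here. Each was scored by the peaks of the tagged protein ZTF-25 in its promoter window, which took in the 1000 bp before and the 500 bp after each annotated 5′ end. A gene was called bound in a peak list when a summit, the highest point of a peak, lay in that window. The counts are given as descriptions, with no test, because the members were chosen with earlier results of these data known. The 12 members bound in the main list were spd-1, spd-5, egg-4, egg-5, spe-9, mex-1, mex-5, pie-1, pgl-1, glh-2, him-3 and rec-8.

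ZTF-25, whose name marks it as a zinc finger protein, was mapped by chromatin immunoprecipitation with sequencing (ChIP-seq) in strain RW12287, with genotype st12287[ztf-25::TY1::EGFP::3xFLAG] V. The tag had been inserted by CRISPR at the ztf-25 gene itself, and an antibody to GFP was used for the precipitation. Whole young adults were collected at 63 hours, after synchronisation by bleaching and starvation at the first larval stage, and sheared chromatin ranged from 200 to 800 bp. The 2 samples were biological replicates of 1 group, with no second genotype, stage or treatment. No untagged strain was analysed here, so no level measured without the tag stands beside the values. The material was the whole animal, so a peak cannot be assigned to the germ line, the soma or the embryos that adults may carry, and the files hold no expression values that would show in which cells a gene was active.

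In the hermaphrodite gonad, stem cells at the distal end divide under Notch signalling, leave that zone and enter meiosis. Homologous chromosomes then pair through special sites, are held together by axis proteins and the synaptonemal complex, and recombine. Oocytes load messenger RNAs and proteins that are kept silent until fertilisation, when zinc finger, KH and PUF proteins that bind RNA, together with P granules, set apart the germ cell lineage of the embryo.

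The authors deposited 4 thresholded and 4 ranked peak lists on ce11. The conservative list held 1092 peaks and was used as the main one. Its peaks all had an irreproducible discovery rate (IDR), which is low where ranks repeat between peak calls, of 0.01 or lower in the ranked list of the series that is used throughout, called the main ranked list here. That list derives from the alignments of both libraries, and the texts deposited with it do not say whether single libraries or parts of their pool were set against each other, so what an IDR compares is not stated. There were 1368 peaks in the combined list, 515 in that of replicate 1 and 295 in that of replicate 2. The height of a peak is the authors' signal value, whose scale is not stated, and it was used within lists only. No read counts are in the files, so the depth of both libraries is unknown.

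Bases under 3 of the 11 conservative peaks at members are shown, with the summit and 10 bases to either side of it in capitals. They are the peak upstream of mex-1, which had the highest signal among intergenic member peaks with no noncoding RNA gene within 1000 bp, and the only 2 peaks that were each shared by 2 members. All are given 5′ to 3′ on the plus strand of ce11, from the RefSeq copy of that assembly, and each peak is 276 bp wide. The first lies at chrII:11967564-11967839, between genes, and 45.3% of its bases are G or C. The second, at chrIV:6976578-6976853, has its summit in a coding exon of pgl-1 and 42.4% G or C. The third, at chrIV:13353388-13353663, fills part of the gap between mex-5 and rec-8 and has 34.1% G or C. Noncoding RNA genes here and below do not include piRNA genes, which were not looked for.
mex-1: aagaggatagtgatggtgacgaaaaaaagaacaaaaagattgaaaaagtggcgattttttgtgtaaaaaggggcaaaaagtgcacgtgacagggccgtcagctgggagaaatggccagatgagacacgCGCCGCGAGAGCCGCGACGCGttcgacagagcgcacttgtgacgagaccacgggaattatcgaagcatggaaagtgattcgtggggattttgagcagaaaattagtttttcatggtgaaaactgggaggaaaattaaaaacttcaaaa
pgl-1 and him-3: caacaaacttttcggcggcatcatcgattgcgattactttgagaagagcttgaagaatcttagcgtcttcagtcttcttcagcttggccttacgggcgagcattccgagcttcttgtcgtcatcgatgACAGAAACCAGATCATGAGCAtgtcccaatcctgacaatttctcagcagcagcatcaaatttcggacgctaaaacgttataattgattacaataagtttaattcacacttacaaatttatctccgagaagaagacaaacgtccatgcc
mex-5 and rec-8: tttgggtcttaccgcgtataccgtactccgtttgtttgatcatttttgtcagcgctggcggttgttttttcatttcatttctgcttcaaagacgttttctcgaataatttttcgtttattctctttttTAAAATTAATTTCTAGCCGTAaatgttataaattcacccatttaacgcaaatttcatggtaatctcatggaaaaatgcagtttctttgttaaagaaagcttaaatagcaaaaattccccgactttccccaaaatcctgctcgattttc

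A larger share of members than of named genes was bound in both lists derived from the 2 libraries together. The members were chosen with earlier results of these data known, so this difference is a description only. In the conservative list 12 of 56 members (21.4%) were bound, against 353 of 10896 named genes (3.24%) and 2.82% of all protein-coding genes. The combined list marked 13 members (23.2%), against 4.2% of named genes. In the list of replicate 1 alone the members bound were spd-5, egg-5, mex-1 and pie-1, which is 4 of 56 (7.14%) against 1.63% of named genes. In the list of replicate 2 they were spd-1, spd-5 and egg-5, which is 3 of 56 (5.36%) against 1.07%. These last 2 shares rest on very few genes. A further 150 genes of the same roles, a list also written with earlier results known, were bound at 7 (4.67%) in the conservative list and 14 (9.33%) in the combined one, which is closer to the share of named genes. In the lists of replicate 1 and replicate 2 those other genes stood at 7 (4.67%) and 2 (1.33%).

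**Figure D1:**
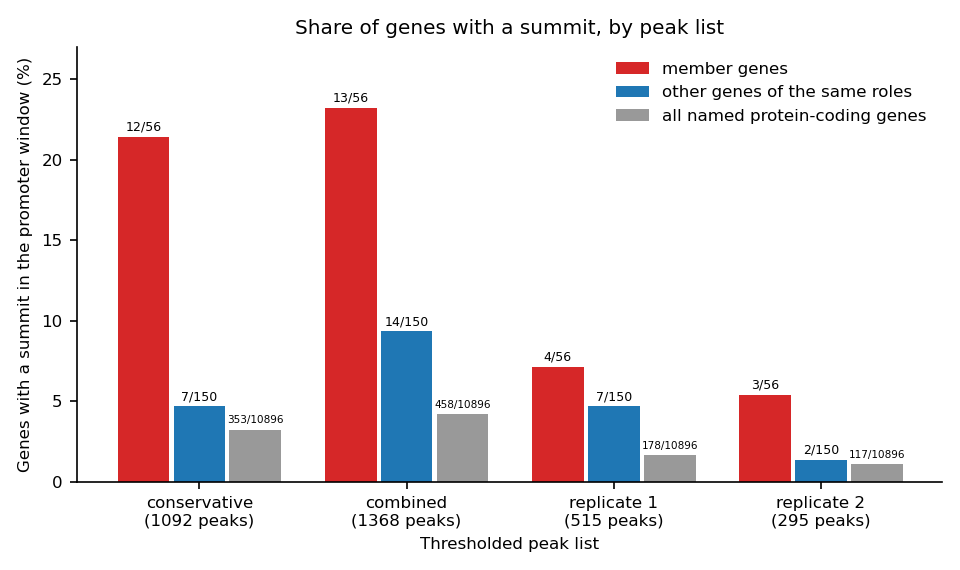
Percentage of genes with a summit in the promoter window (vertical axis) in each of the 4 thresholded lists, for the 56 members, for 150 other genes of the same roles and for 10896 named protein-coding genes; the numbers above the bars are genes bound and genes in all. The members' bar is the tallest in each list, at 21.4% in the conservative list against 3.24% of named genes.

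Summits of the conservative list lay at 2 of 3 centrosome and spindle genes, 3 of 8 genes of fertilisation, yolk uptake and egg activation, 3 of 11 genes that regulate RNA in the oocyte and early embryo, 2 of 7 P granule and germline RNA particle genes and 2 of 6 genes of the meiotic axis and of cohesion. None of the 8 stem cell and meiotic entry genes, the 4 pairing centre genes, the 4 synaptonemal complex genes or the 5 recombination and checkpoint genes had one, although the combined list added 2 synaptonemal complex genes. Against 3.24% of named genes bound, a count of 0 in groups this small says nothing particular about those roles. In all, 14 members had a summit in at least 1 thresholded list, 2 of them (spd-5 and egg-5) in all 4 lists, and 42 had none in any. Of the 12 members in the conservative list, 5 were also in the list of either replicate and 7 were in neither. For named genes these counts across lists were not computed. The 3.24% holds for the conservative list only and is no background for them.

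Among the centrosome and spindle genes, spd-5 carried the highest signal of all members. The gene (WBGene00004955, chromosome I, 5171275 to 5176654, minus strand) encodes the scaffold protein of the material around the centrioles, on which microtubules are nucleated at the first divisions. It had 2 conservative summits, both in its introns and 653 bp apart. The stronger peak, at 5176250 to 5176525, ranked 59 of 1092 with a signal of 186.4, and it reached 99.58 in the list of replicate 1 and 82.38 in that of replicate 2. Its summit was 266 bp downstream of the most upstream 5′ end of spd-5 and 441 bp upstream of npp-6, a nuclear pore gene that runs the other way. The weaker peak, at 5175597 to 5175872, ranked 261 with a signal of 120.6, and it had 69.05 in replicate 1 and 53.94 in replicate 2. It lay 27 bp upstream of an internal 5′ end. Both were present in all 4 thresholded lists, and no noncoding RNA gene of the kinds looked for lay within 1000 bp of either. Of named genes, 23 (0.211%) had 2 or more conservative summits in their windows, and spd-5 was the only member among them.

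The second gene of this role was spd-1 (WBGene00004952, chromosome I, 1030633 to 1033436, minus strand), whose product bundles the microtubules of the central spindle. Its peak, at 1034255 to 1034530, had a signal of 107.5, rank 363, with 51.73 in replicate 1 and 54.96 in replicate 2. It was listed in the conservative and combined lists and in that of replicate 2. The summit lay 957 bp upstream of spd-1 but only 50 bp upstream of Y34D9A.3 on the other strand, so the promoters of these 2 genes cannot be told apart. The third gene, spd-2, which brings other proteins to the centrosome, was bound in no list. Its highest ranked peak had a signal of 34.9, with 18.48 in replicate 1 and 14.81 in replicate 2, and an IDR of 0.41. Among 17 other centrosome and spindle genes, 3 had a conservative summit. These were zyg-1, the kinase that starts centriole duplication (signal 95.93, 117 bp upstream, with the summit inside the noncoding RNA gene F59E12.14), tbg-1, which encodes gamma-tubulin (92.36, 919 bp upstream), and the centriole gene sas-4 (91.25, 727 bp upstream). For tbg-1 and sas-4 another gene was nearer, rpac-19 at 188 bp and F10E9.11 at 55 bp.

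Of the fertilisation and egg activation genes, the near-identical pair egg-4 and egg-5 was bound. Their products are phosphatase-like proteins of the oocyte cortex that hold back the kinase MBK-2 until the egg is activated. The peak at egg-5 (WBGene00020035, chromosome I, peak 4172220 to 4172495) was the second strongest at a member gene, with a signal of 148.9, rank 140, and it was in all 4 lists. It had 66.95 in replicate 1 and 91.64 in replicate 2. Its summit was 769 bp upstream of egg-5, with the spliced leader RNA gene sls-2.4 at 43 bp and the noncoding RNA gene R12E2.18 at 52 bp, and their part in this peak was not tested. The peak at egg-4 (WBGene00020652, chromosome I, peak 3931819 to 3932094) was lower, with a signal of 72.97 and rank 995. It had 50.92 in replicate 1 and 32.94 in replicate 2. Its summit lay 253 bp upstream of egg-4, between genes, with no noncoding RNA gene within 1000 bp. It was the only member bound in the conservative list and in no other; 123 of the 1092 conservative peaks were likewise absent from the combined list. The 2 genes share 98.8% of their bases but only 58.3% over 1000 bp upstream, where both summits lie.

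The third bound gene of this role was spe-9 (WBGene00004963, chromosome I, 11582743 to 11586069, minus strand), which encodes a sperm surface protein needed for fertilisation. The peak, at 11584661 to 11584936, had a signal of 108.5, rank 351, with 59.05 in replicate 1 and 46.63 in replicate 2. It was in the conservative and combined lists only. The summit lay in an intron of spe-9, 321 bp upstream of an internal 5′ end and 1270 bp from the most upstream one, and inside the lysine tRNA gene C17D12.t2, 12 bp from the start of that gene. In all, 5 noncoding RNA genes, other tRNA genes among them, lay within 1000 bp of it.

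The other 5 genes of the role were in no thresholded list. Among them egg-6, which encodes an extracellular leucine-rich repeat protein, had the highest ranked value, with a signal of 61.9, 32.22 in replicate 1, 31.05 in replicate 2 and an IDR of 0.0342. Its value was 2.268 in the window of 500 bp upstream and 200 bp downstream. The yolk receptor gene rme-2 followed with 54.4, where the best value in replicate 1 was 8.305 and that in replicate 2 was 49.24. Next came egg-3, another phosphatase-like gene of egg activation, with 53.87 and no replicate 1 peak in its window. The oocyte surface genes egg-1 and egg-2, needed for sperm entry, had 47.38 and 37.75. All 8 genes of this role were above the median of named genes in the main ranked list, against 42% of named genes, with egg-2 close to that median of 37.63. In the ranked list of replicate 1, 5 of the 8 were above the median of that list, against 3655 of 10896 named genes. In that of replicate 2 it was 7, against 3575 of 10896. None of 21 other genes of this role had a summit in any of the 4 lists.

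In the group that regulates RNA in oocytes and early embryos, mex-1, mex-5 and pie-1 were bound. All encode proteins with CCCH zinc fingers that partition or silence maternal factors as the germ lineage is set apart. The gene mex-1 (WBGene00003228, chromosome II, 11968637 to 11972330, plus strand) had a peak with a signal of 124.2, rank 237, with 60.2 in replicate 1 and 63.89 in replicate 2, and it was in every list but that of replicate 2. This is the first sequence shown above. Its summit at 11967702 lay 935 bp upstream of mex-1, but 158 bp upstream of W03C9.5 and 771 bp upstream of rab-7, both on the other strand. These 3 genes cannot be told apart as the owner of the peak.

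The peak at mex-5 lay between that gene and rec-8, a meiotic cohesin gene, which are transcribed away from each other from 5′ ends 530 bp apart. Its signal was 89.22, rank 636, with 52.07 in replicate 1 and 33.63 in replicate 2, and it was in the conservative and combined lists. The summit at 13353526, in the third sequence shown above, was 197 bp upstream of mex-5 (WBGene00003230) and 333 bp upstream of rec-8 (WBGene00004333). Of member peaks it is the one that sits between 2 members in a shared upstream region. The paralogue mex-6, which acts with mex-5 in polarity, had no summit in any list and a highest ranked value of 32.46. The gene bodies of mex-5 and mex-6 have 63.6% identity and their upstream 1000 bp have 46.4%.

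At pie-1 (WBGene00004027, chromosome III, 12426893 to 12429195, plus strand), which blocks transcription in germ cell precursors, the summit was at the far end of the gene. The peak, at 12428978 to 12429253, had a signal of 77.33 and rank 903, and it was in the conservative and combined lists and in that of replicate 1. It had 58.64 in replicate 1 and 30.92 in replicate 2. That replicate 2 peak had an IDR of 0.426 and its summit outside the window of pie-1, where the highest replicate 2 value was 12.1. The conservative summit fell in the annotated 3′ UTR, 2223 bp from the most upstream 5′ end and 79 bp from the end of the gene. It counted as bound because it was 403 bp downstream of the start of a shorter annotated transcript. The 5′ end of snr-6, a gene of a core splicing protein, was 513 bp away.

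The other 8 genes of the role ranged widely and were in no thresholded list. The KH domain gene mex-3 had a ranked signal of 72.08, with 36.83 in replicate 1 and 40.73 in replicate 2, though its IDR was 0.573. This signal was close to that of the conservative peak at egg-4, while its IDR was far higher. With 5 annotated 5′ ends, mex-3 had a window of 4414 bp. Its value was 58.4 in the window of 500 bp upstream and 200 bp downstream. The CCCH gene pos-1 had 42.51 and the Nanos gene nos-2 had 36.44. The oocyte maturation gene oma-2 had 31.22, while its partner oma-1 had no peak in the main ranked list and 19.68 in replicate 1 alone. Lowest were the PUF gene puf-5 with 20.63 and the RNA recognition motif gene spn-4 with 19.39. The value of spn-4 depended on the window and the list, since it was 60.22 with 2000 bp upstream and 36.37 in replicate 1. Of 20 other genes of this role, none had a conservative summit and 1 had one in the combined list.

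P granules are the RNA and protein condensates of the germ line. Their DEAD-box helicase gene glh-2 (WBGene00001599, chromosome I, peak 6513778 to 6514053) had a peak with a signal of 94.96, rank 533, with 43.25 in replicate 1 and 47.9 in replicate 2. It was in the conservative and combined lists. The summit was 12 bp upstream of its 5′ end, the closest of any member summit, and 86 bp from C55B7.11 on the other strand. The related helicase genes glh-1 and glh-4 were bound in no list, with highest ranked values of 54.44 and 32.81. The gene body of glh-1 has 65.4% identity to that of glh-2.

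The scaffold gene pgl-1 (WBGene00003992) shared its peak with him-3 (WBGene00001862), a gene of the meiotic chromosome axis whose 5′ end is 190 bp away on the other strand. The signal was 77.6, rank 893, with 41.27 in replicate 1 and 35.71 in replicate 2, and the peak was in the conservative and combined lists. The summit at 6976716, in the second sequence shown above, was in a coding exon of pgl-1, 427 bp downstream of its nearest 5′ end and 792 bp upstream of him-3. It was not in the gap between both genes. The paralogue pgl-3 had the highest signal of any member bound in no list, 75.66, with 39.88 in replicate 1, 27.79 in replicate 2 and an IDR of 0.0258. Next in this role came car-1, an Lsm domain gene, with 69.96 (43.63 in replicate 1, 26.17 in replicate 2, IDR 0.0289), and cgh-1, a DEAD-box helicase gene of stored messenger RNA particles, with 64.5 (29.97 in replicate 1, 28.19 in replicate 2, IDR 0.0605). The median of the 7 genes was 69.96, and 6 of them were above the median of named genes, against 42% of named genes. Of 18 other genes of this role, ife-3, a cap-binding translation factor gene, had a conservative summit, with a signal of 74.54 in a coding exon 220 bp downstream.

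In the meiotic axis group the 2 bound genes, him-3 and rec-8, are the ones that share their peaks with pgl-1 and mex-5, and for neither was it the nearest gene. Both peaks were absent from the thresholded lists of the single replicates. The HORMA domain genes htp-2, htp-1 and htp-3, whose proteins build the axis with HIM-3, had highest ranked values of 56.2, 46.22 and 40.04, and lab-1, which protects cohesion, had 52.66. All 6 genes were above the median of named genes in the main ranked list, against 42% of named genes. In the ranked list of replicate 1, 4 of the 6 were above the median of that list, against 3655 of 10896 named genes. In that of replicate 2 it was 5, against 3575 of 10896. No gene among 10 others of this role had a conservative summit, and 2 had one in the combined list.

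At the synaptonemal complex, whose central region proteins hold paired axes together, syp-3 and syp-4 were bound in the combined list only. The peak at syp-4 (chromosome I, 6847055 to 6847330) had a signal of 67.26 and an IDR of 0.0563, with 26.65 in replicate 1 and 38.1 in replicate 2. Its summit, 318 bp upstream, was inside the snRNA gene H27M09.6 and the noncoding RNA gene H27M09.7, and it was nearer to H27M09.5, at 234 bp. The peak at syp-3 (chromosome I, 8663835 to 8664110) had a signal of 65.42 and an IDR of 0.0421, with 39.16 in replicate 1 and 25.32 in replicate 2. It lay in an intron, 147 bp downstream of an internal 5′ end, with no noncoding RNA gene within 1000 bp. The genes syp-2 and syp-1 had ranked values of 45.98 and 30.91. None of 5 other genes of this role was bound.

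The members that act in stem cells, pairing and recombination were in no thresholded list. Among the 8 stem cell and meiotic entry genes the highest values ran from 33.62 at gld-3 to 58.71 at gld-2, the cytoplasmic poly(A) polymerase gene, with a median of 40.09. The Notch receptor gene glp-1 had 41.11, with 26.3 in replicate 1 and 18.43 in replicate 2. The PUF genes fbf-1, fbf-2 and puf-8, which repress meiotic entry messages, had 47.94, 41.7 and 36.69, the KH domain gene gld-1 had 39.07 and the Nanos gene nos-3 had 37.34. These values straddle the median of named genes, with 5 of 8 above it, against 42% of named genes. Of 18 other genes of this role, atx-2, an RNA regulator of germline proliferation, was bound by 2 peaks with signals of 196.5 and 128.8, at 52 and 611 bp upstream. Their values were 105.9 and 70.29 in replicate 1 and 94.84 and 60.37 in replicate 2, and both were in all 4 lists. To the weaker of these 2 peaks ecps-1 was nearer, at 227 bp. The stronger was higher than any peak at a member.

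The pairing centre genes, a cluster of zinc finger genes on chromosome IV whose proteins each mark certain chromosomes for pairing, had both higher and lower values. The genes zim-3 and zim-1 had 58.04 and 48.84, and him-8 and zim-2 had 18.72 and 15.6, each at an IDR of 0.761. In replicate 1 him-8 had no peak in its window and zim-2 had 4.464. In replicate 2 they had 10.4 and 14.52. With 2000 bp upstream him-8 had 32.63 and zim-2 37.2, so their low values in the main ranked list depend on the window. Of the recombination and checkpoint genes, the kinase gene chk-2 was highest, with 59.45, 31.58 in replicate 1, 28.93 in replicate 2 and an IDR of 0.0462. The crossover gene msh-5 had 41.69, and the ATPase gene pch-2 had 15.2, the lowest of the members with a ranked peak. The IDR at pch-2 was 0.761, and its window held no peak of either replicate's ranked list. No peak of the main ranked list lay in the windows of spo-11, which makes the breaks that start recombination, or of cosa-1, which marks crossover sites. Of 7 other pairing genes, dlc-1, a dynein light chain gene, had a conservative summit (signal 86.4, 694 bp upstream, inside the noncoding RNA gene T26A5.10). Of 34 other recombination genes, him-5 had one (signal 93.88, 460 bp downstream, 25 bp from the snoRNA gene smy-3). The gene D1086.3 was nearer to that summit, at 245 bp.

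Over all members the ranked values lay above those of named genes, also outside the thresholded lists. In the main ranked list 53 of 56 members had a peak in their windows, and the median of the highest signal was 52.66, with quartiles of 37.34 and 72.08. For named genes it was 37.63, with quartiles of 27.87 and 48.9, over the 9147 with a peak. Above that median were 39 members (69.6% of 56), against 42% of named genes. The 42 members bound in no list had a median of 41.7, and the other genes of the same roles had 45.11, over 137 with a peak. The median window was 1501 bp for members and for named genes. This is the window of a gene with 1 annotated 5′ end, so equal medians do not show that window sizes match. Windows were wider at rec-8 (4168 bp), spe-9, mex-1 and pie-1 (3002 bp each), spd-5 (2447 bp), pgl-1 (1676 bp) and him-3 (1519 bp). At the other members of the conservative list, spd-1, egg-4, egg-5, mex-5 and glh-2, they were 1501 bp. The widest among members was 7103 bp, at gld-2, bound in no list. The effect of extra 5′ ends on the counts was not tested. In the ranked list of replicate 1 the medians were 30.64 for members and 25.05 for named genes, and in that of replicate 2 they were 26.19 and 20.89. The best values of the replicates correlated across 42 members with a Spearman's rho of 0.486, and across 5604 named genes with 0.362. These are descriptions across genes, which share their libraries and are not independent replicates.

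**Figure D2:**
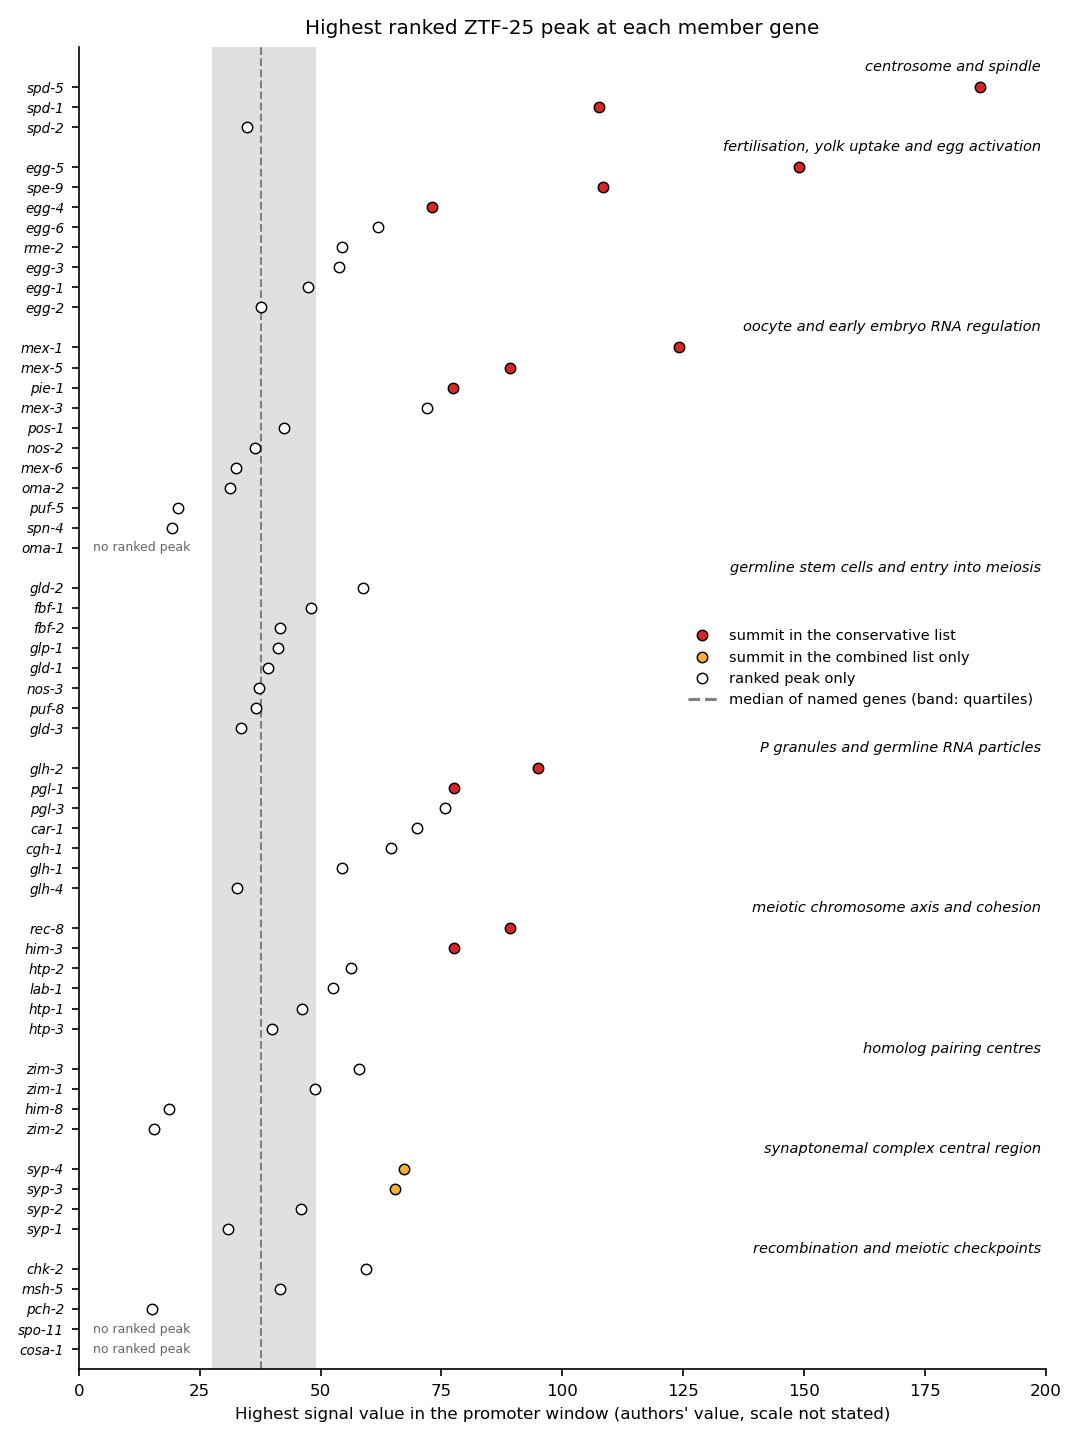
Highest signal value of a ranked peak in the promoter window of each member (horizontal axis, the authors' value), grouped by role and ordered within it; red points have a summit in the conservative list, yellow ones in the combined list only and white ones in no thresholded list. The dashed line is the median of named genes, 37.63, and the band their quartiles; spd-5 stands highest at 186.4, and 3 members have no ranked peak.

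Signals at the 11 distinct conservative peaks of members had a median of 107.5 (72.97 to 186.4), against 93.93 over all 1092 peaks, and 7 of the 11 were above that value. The highest of them ranked 59 of 1092. Each had a peak in both replicates' ranked lists. Those lists are long, with a peak in the windows of 7311 and 7150 of 10896 named genes. In the ranked list of replicate 1 the IDR ran from 0.000108 at the stronger spd-5 peak to 0.513 at the pgl-1 and him-3 peak. In that of replicate 2 it ran from 9.82e-05 at egg-5 to 0.507 at egg-4. The values of the 2 replicates come from lists that were made separately, so they are set side by side only. In both, the stronger spd-5 peak and the egg-5 peak were among the highest. The lowest values in replicate 2 were those at pie-1, egg-4, the mex-5 and rec-8 peak and the pgl-1 and him-3 peak.

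**Figure D3:**
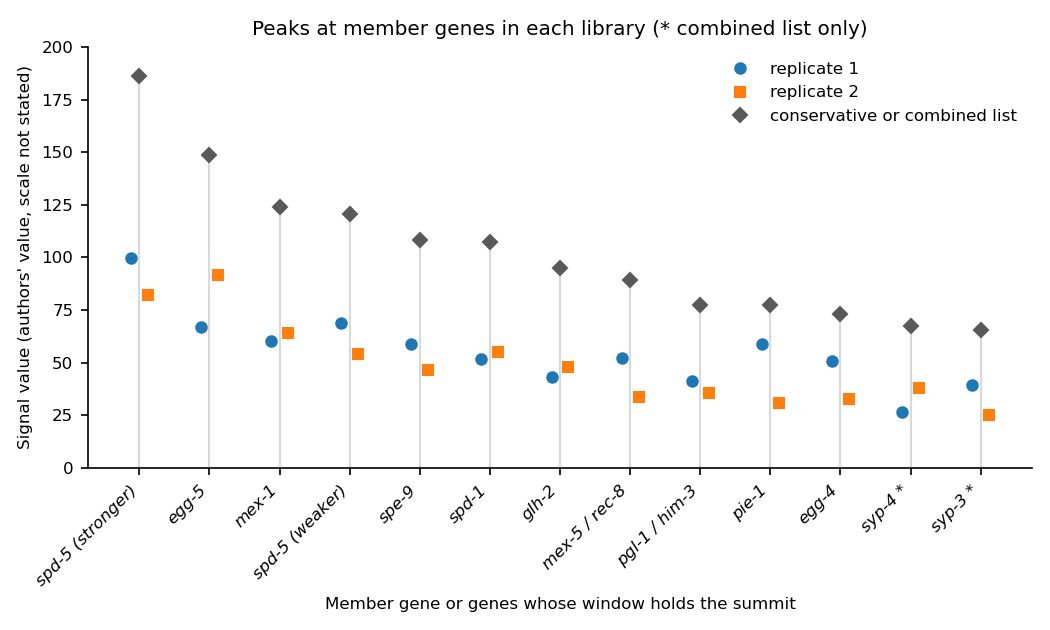
Signal value (vertical axis, the authors' value) of each member peak in the conservative or combined list (diamonds) and in the ranked list of replicate 1 (circles) and replicate 2 (squares); an asterisk marks peaks of the combined list only. The 11 conservative peaks run from 186.4 at spd-5 to 72.97 at egg-4, and the egg-5 peak is the one with the highest value in replicate 2, 91.64.

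By position, 6 of the 11 peaks were intergenic, 3 lay in introns, 1 in a coding exon and 1 in a 3′ UTR. Upstream summits were found at 10 bound members and downstream ones at 3, with spd-5 in both groups. Of the 12 bound members, 8 were the nearest gene to a peak of theirs, and spd-1, mex-1, him-3 and rec-8 were not. Among named genes, 257 were bound with nearest genes only, against 353 in the main setting. A 5′ end of another gene on the opposite strand lay within 1000 bp upstream at 6 of the 12 bound members (50%), at 15 of the 44 other members (34.1%) and at 2167 of 10896 named genes (19.9%). A neighbour that reads the other way stood close to many members, and its part in the counts was not tested. Noncoding RNA genes, with piRNA genes not counted, lay within 200 bp of 2 of the 11 peaks, those of egg-5 and spe-9. None of the kinds looked for lay within 1000 bp of the other 9. Without all peaks that had a tRNA, tRNA pseudogene, snoRNA, snRNA or rRNA gene within 200 bp, 724 peaks were left, and 10 of 56 members (17.9%) were bound, against 2.61% of named genes.

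**Figure D4:**
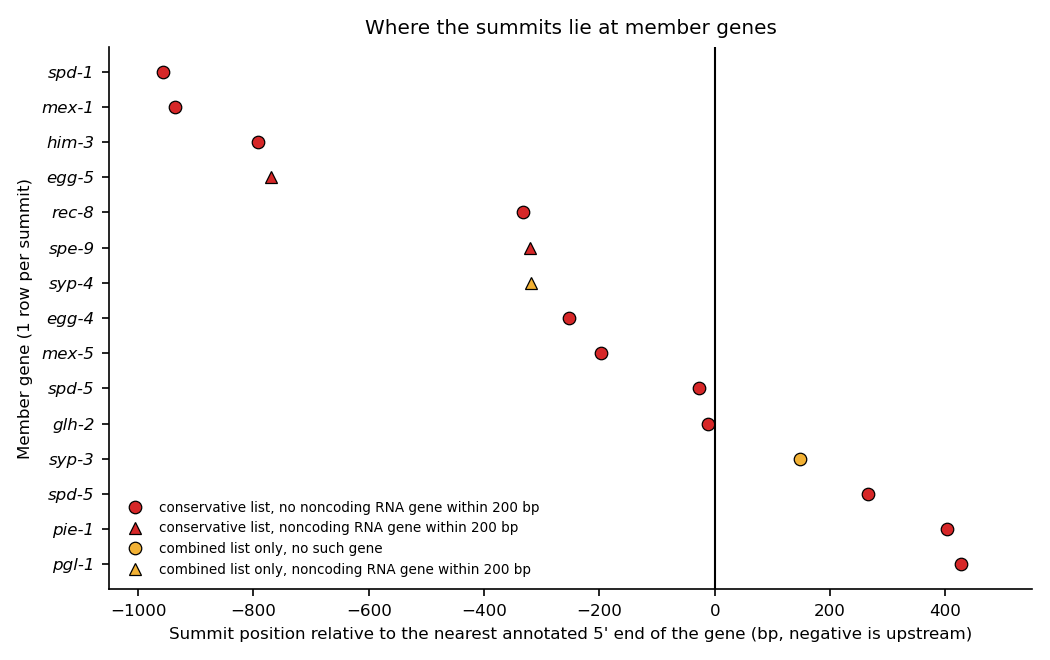
Position of each member summit relative to the nearest annotated 5′ end of the gene (horizontal axis, bp, negative is upstream), 1 line per gene and summit; triangles have a noncoding RNA gene within 200 bp and yellow symbols are in the combined list only. Summits run from 957 bp upstream at spd-1 to 427 bp downstream at pgl-1, and the one at glh-2 is 12 bp upstream.

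Most members lie on chromosomes I, II and IV. Chromosome I held 18 of them and 6 of the 12 bound ones, against 14.6% of named genes; 5.08% of the named genes there were bound. Chromosome IV held 14 members with 4 bound, where 3.4% of named genes were bound. On II it was 1 of 11 members, against 2.89% of named genes, on III 1 of 6, against 4.47%, and on V 0 of 7, against 2.24%. No member lies on X, which holds 12.3% of named genes.

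A search for words of bases seen at other peaks of this protein found a match at 1 member summit. The word GGTTCGA, part of a promoter element inside tRNA genes, was found on either strand within 50 bp of 1 of the 11 summits (9.09%), that of spe-9 in its tRNA gene. It was found at 16.4% of all conservative peaks and in 1.14% of windows of the same 101 bp centred 500 bp to either side. The word GTGGTTA was at 0 of the 11, against 8.52% of all peaks and 0.458% of neighbouring windows. Neither was the word TCGGCCA, found at 7.42% of all peaks and 0.824% of neighbouring windows, nor the word AACCACT, found at 9.52% and 0.778%. On the other strand AACCACT reads AGTGGTT, which overlaps GTGGTTA, so their absences are not separate. Peaks at small noncoding RNA genes are part of the shares of all peaks. No match says only that these letters are not in these 11 windows. The share of G and C within 50 bp of the summit had a median of 47.5% at members' peaks (25.7 to 62.4%), against 49.5% at all conservative peaks and 36.6% in neighbouring windows.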

How the data were processed

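The data are peak lists from 2 ChIP-seq libraries of whole young adult worms, biological replicates of 1 group. Per the deposited README texts, the lists were derived on ce11 from alignments and a control file and ranked by IDR. The thresholded lists also used 1 more file, of unstated content. Which aligner and peak caller were used is not given in the sources used here, nor is the handling of duplicates. The signal value of each peak is as the authors deposited it, with no scale stated. In the ranked lists the authors deposited the −log10 of each peak's global IDR, which was turned into an IDR here. In the 2 ranked lists of the series, 2 columns hold values of single libraries without saying which, and they were not used; replicate values come from each replicate's own ranked list.

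Summits are the peak start plus the deposited offset, counted from 1. Genes are from Ensembl release 115 and sequence from RefSeq, both on WBcel235, the same assembly as ce11; peak and gene ends lay within the chromosome lengths. A replicate's value at a peak is that of its highest overlapping ranked peak, and for a gene bound in no list the highest with a summit in its window. All 56 members and 150 of 151 other genes of the same roles matched the annotation by symbol. Members, role groups and that list were chosen with earlier results of these data known. Every member with a summit in a thresholded list was to be described in full, with the 6 highest and 4 lowest of the rest by ranked value, and every other gene of the same roles with a conservative summit. Alternatives were other lists, IDR limits, windows, peak overlap, nearest genes, removal of peaks at small noncoding RNA genes and another background. Paralogues were aligned with Biopython 1.88 (global alignment, match 1, mismatch -1, gap opening -4, gap extension -0.5). Window assignment was tested on simulated data with planted summits. Python 3.11.15, scipy 1.17.1 and matplotlib 3.10.9 were used.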

Additional observations from a re-analysis of the deposited data

How the results depend on the processing

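The number of members bound, 12 in the conservative list, depended most on the list, the IDR limit and the window. From a single replicate's list it was 3 to 4. In the main ranked list it was 3 at an IDR of 0.001 (spd-5, egg-5 and mex-1), against 1.04% of named genes, 12 at 0.01, 17 at 0.05 (7.89% of named genes) and 20 at 0.1 (12.5%). With a window of 500 bp upstream and 200 bp downstream it was 6 (spd-5, egg-4, spe-9, mex-5, glh-2 and rec-8), against 1.95%. It stayed at 8 to 13 under the other settings. These were the combined list (13, against 4.2% of named genes), 2000 bp upstream (12, against 4.55%), peak overlap (12, against 3.58%), nearest genes only (8, against 2.36%) and the set without peaks within 200 or 500 bp of small noncoding RNA genes (10 each, against 2.61% and 2.6%). Against all protein-coding genes the background share was 2.82%, compared with 3.24% of named genes.

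The median ranked value of members, 52.66, was 41.7 with the narrower window, where that of named genes was 33.09, and 26.19 to 30.64 from a single replicate. It was 53.26 both with the wider window and with the other ranked list. Of 46 values of 24 members under the other windows, 33 were identical and 13 moved. The narrower window left out the summits at spd-1, egg-5, mex-1, pie-1, pgl-1 and him-3 and the stronger one at spd-5. This follows from its construction, since they lie more than 500 bp upstream or 200 bp downstream. The highest value there was then 9.743 at spd-1, 57.31 at egg-5, 28.58 at mex-1, 34.47 at pie-1, 120.6 at spd-5 and 41.29 at cgh-1, and spn-4 and zim-2 had no peak.

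No paired analysis was possible because the samples form 1 group. With 2 libraries, no read counts and no untagged sample, depth and nonspecific enrichment at these promoters cannot be judged. A summit between neighbouring genes cannot be assigned to 1 of them.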
